A study of Mus musculus with 250 samples.

Results

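The spleen and the thymus of 25 control mice were compared on 50 arrays, 25 of each organ, out of 250 arrays that cover 5 tissues of a mouse model of breast cancer. All arrays labelled as control spleen or control thymus were taken. The organs of a mouse were linked by the sample IDs in their labels, by the rule given under the processing. The mice were female FVB littermates and cage mates of tumor-bearing animals. They carried the TetO-NeuNT transgene, an activated form of the rat Her2/Neu receptor gene behind a doxycycline-responsive promoter, but lacked MMTV-rtTA, the activator that switches the transgene on in the breast of the tumor-bearing animals. Like those animals, the controls were given drinking water that held 2 mg/mL doxycycline and 5% sucrose, starting when they were 8 weeks old, so that both organs come from treated animals and not from mice on plain water. Each control was killed when the tumor of its matched littermate reached 1 cm, and whole organs were snap-frozen. Each array holds RNA from a single organ of a single mouse, hybridized to an Affymetrix mouse genome GeneChip. The comparison asks how the resting expression of the organ where T cells are made differs from that of the organ where mature lymphocytes reside and blood is filtered.

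The thymus takes in precursors from the bone marrow, which cut and rejoin their T cell receptor genes and are then tested on epithelial cells, those of the cortex choosing cells with useful receptors and those of the medulla, under Aire, showing them proteins of many other organs. The spleen has a white pulp of B cell follicles and T cell zones, a marginal zone with its own macrophages, and a red pulp whose macrophages remove old red cells and recycle their iron. In mice the red pulp also goes on producing red cells, platelets and granulocytes in adult life.

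The organs had different array medians in the deposited intensities, 100.3 to 111.3 in spleen and 117.4 to 133.8 in thymus, with no overlap. Values were therefore compared by rank. A percentile rank of 100 marks the brightest probe set of an array and 0 the dimmest. For tests, each rank was replaced by the mean log2 intensity of that rank over the 50 arrays, and every log2 difference below is spleen minus thymus on this scale, given with its standard error. A gene was called when the Benjamini-Hochberg adjusted p of limma, with the mouse as a block, was under 0.05 and the difference was at least 1 in either direction. No detection calls were used here, so a probe set of low rank is described by its rank and not as absent. In whole organs, fewer cells of a type and less RNA per cell cannot be told apart.

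A group of 6 arrays, 2 of spleen and 4 of thymus, had a correlation under 0.95 with the median array of their tissue and stood apart from the rest. The arrays labelled spleen of mouse 13 and mouse 21 correlated at 0.821 and 0.824 with the spleen median. Their B cell genes had a mean percentile rank of 41.00 and 43.90, against 92.79 to 95.30 in the kept spleen arrays, and a list of kidney genes stood at 93.92 and 93.05, against 24.39 to 27.98. Both arrays were thus low in the defining genes of the labelled organ and high in those of another. The array labelled thymus of mouse 20 correlated at 0.933 with the thymus median and at 0.988 with the spleen median. Its recombination genes stood at 62.21, its B cell genes at 92.08 and its thymic epithelial genes at 41.30, the last against 78.13 to 83.49 in the 20 mice whose arrays were all kept. The array labelled thymus of mouse 11 was at 0.895, with ovarian and steroid-making genes at 81.68 (kept arrays 34.80 to 38.17). Its recombination genes stood at 52.39 and its thymic epithelial genes at 49.06, both below all kept thymus arrays. Its matrix and smooth muscle genes were at 95.58 and 93.31, where the thymuses of the 20 mice reached at most 85.49 and 74.86. The arrays labelled thymus of mouse 2 and mouse 21 were at 0.727 and 0.919. Their airway genes ranked at 87.43 and 79.20 (kept arrays 43.21 to 73.79). Their heart muscle genes, at 86.42 and 93.82, lay within the range of the kept arrays, 37.85 to 95.92. Their recombination genes stood at 84.19 and 83.96 (kept arrays 90.03 to 92.65) and their epithelial genes at 76.84 and 83.53, so that both still ranked high for genes of the thymus. The kidney, ovary, heart and airway lists were drawn up after these arrays had been seen. Differences of single genes are given for all 25 mice unless the 20 mice in which neither array stood apart are named. A list's count is given once where both sets of mice had the same count, and a gene named below whose call differed between them is said to do so.

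**Figure D1:**
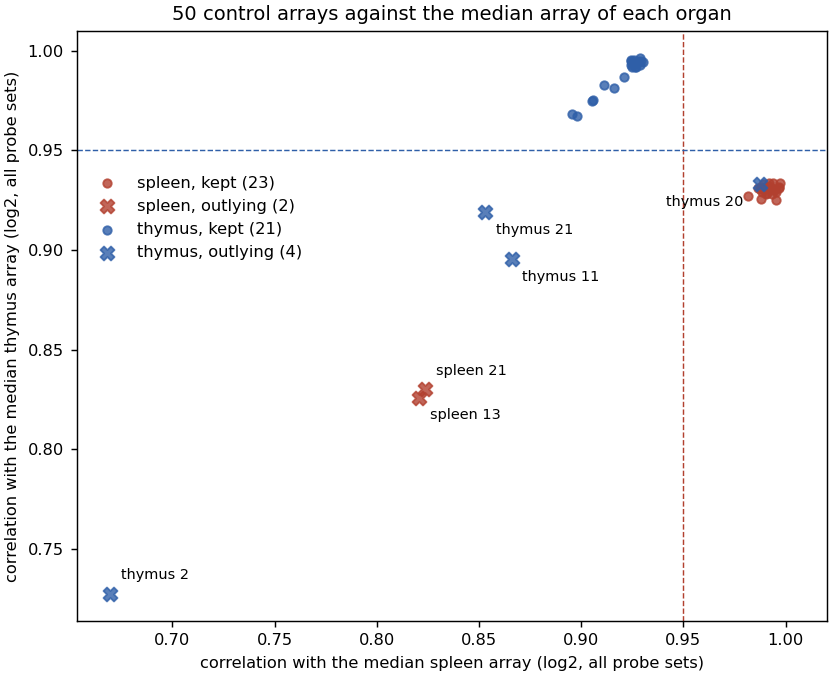
Correlation of each array with the median spleen array (x axis) and with the median thymus array (y axis), Pearson's r on log2 intensity over all probe sets, with spleen and thymus arrays in separate colors and the 6 arrays that stand apart marked by a cross. The kept spleen arrays lie between 0.9817 and 0.9971 with their own median and the kept thymus arrays between 0.9675 and 0.9964, and the array labelled thymus of mouse 20 lies among the spleen arrays.

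Of 18193 genes, 1181 were higher in spleen (6.49%) and 1521 higher in thymus (8.36%) in all 25 mice. The counts were 1323 (7.27%) and 1695 (9.32%) in the 20 mice. A list below whose share of called genes is near these shares is not set apart by its count. The share of calls that were higher in spleen was 43.7% on ranks and 30.1% on the deposited log2 values with no ranking (903 against 2094), whose median difference over all genes was -0.24, against -0.021 on ranks. With no size limit, the adjusted p was under 0.05 with the higher value in spleen for 26.5% of genes and in thymus for 31% (33.5% and 39% in the 20 mice). Of the called genes, 249 were higher in the spleen of every one of the 25 mice and 501 higher in the thymus of every one. Arrays of spleen lay wholly above those of thymus for 82 genes (0.451%) in 25 mice and for 1432 genes (7.87%) in 20 mice, and the reverse held for 236 (1.3%) and 1859 genes (10.2%).

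Rag1, the nuclease subunit that opens receptor genes for recombination, had the largest difference among genes higher in the thymus of every mouse, at -8.53 ± 0.42. Next to it stood H2-Q2, a class I histocompatibility gene whose near-identical neighbours can share a probe set, at -7.30 ± 0.40, and Dntt, the polymerase that adds random bases at receptor joints, at -7.27 ± 0.40. The 15 leading thymus genes also held epithelial genes (Tbata, Prss16, Krt8, Krt17, Dsp), brown fat and heart muscle genes (Cidea, Myh6, Actc1) and airway genes (Bpifa1, Cyp2f2). The 15 leading spleen genes held genes of red cells (Slc4a1 at 6.59 ± 0.38, Rhag at 5.87 ± 0.38 and Ermap at 5.34 ± 0.35), of platelets (Ppbp at 5.78 ± 0.39) and of B cells (Siglecg at 4.50 ± 0.28 and Pax5 at 3.83 ± 0.18). They also held Esm1, an endothelial proteoglycan gene, at 4.30 ± 0.16, Pla2g5, a secreted phospholipase gene, at 4.6 ± 0.21, and Lrrk2, a large kinase, at 3.77 ± 0.19. For Esm1 and Lrrk2 the spleen arrays lay wholly above the thymus arrays even with the 6 arrays that stood apart, Esm1 at percentile ranks of 64.8 to 86.9 against 5.18 to 59.2. The leading genes of both organs thus held genes of blood cells. Those of spleen also held an endothelial gene, and those of thymus genes of epithelium, muscle, fat and airway.

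**Figure D2:**
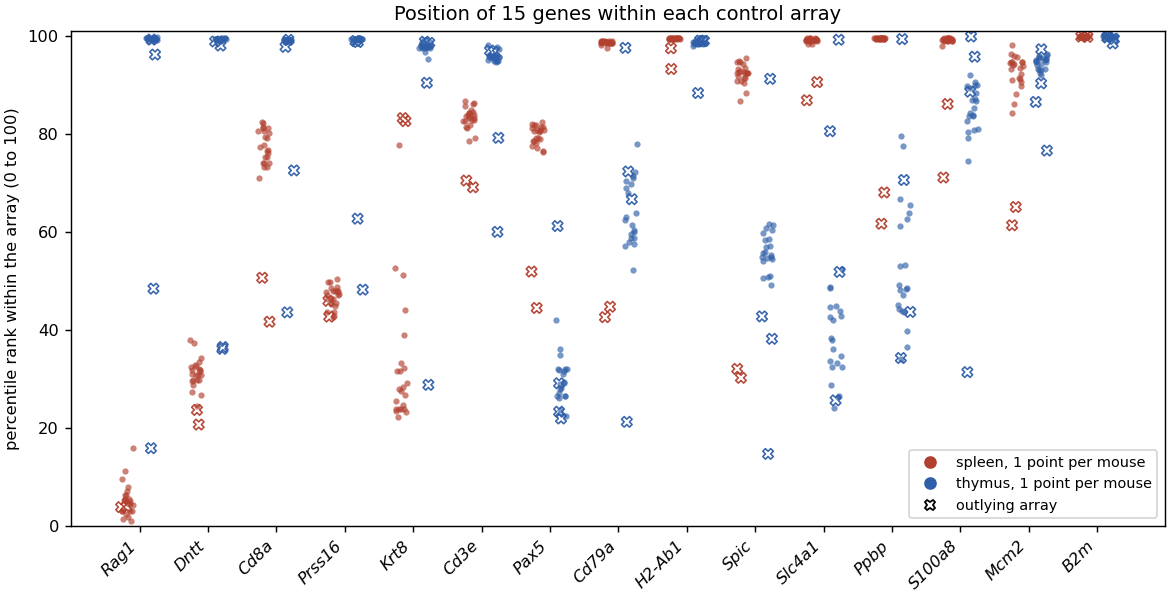
Percentile rank within the array (y axis, 0 to 100) of 15 genes in every spleen and thymus array, 1 point per array, with the arrays that stand apart marked. In the 20 mice Rag1, Dntt, Prss16 and Krt8 rank higher in every thymus array than in any spleen array. Pax5, Slc4a1 and Ppbp do the reverse, and B2m is near the top in both organs. Krt8 still reaches 77.8 in a spleen array of the 20 mice, and Ppbp 79.7 in a thymus array.

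The machinery that builds T cell receptors was higher in thymus. Of 17 measured genes of the pre-T cell receptor and recombination list, 13 were called higher in thymus and 0 higher in spleen, in 25 and in 20 mice alike, with a median difference of -3.03 (-3.51 in 20 mice) where the median of all genes was -0.021. Rag1 ranked at 0.965, 4.58 and 15.8 (lowest, median and highest array) in spleen and at 15.8, 99.5 and 99.8 in thymus. In the 20 mice the lowest thymus array of Rag1 was at 99.0, and the difference was -9.23 ± 0.08 (adjusted p = 1.2e-29). Rag1 was thus among the brightest probe sets of the thymus and among the dim ones of the spleen, and no spleen array reached any thymus array. Rag2, its partner, differed by -5.31 ± 0.31, and Ptcra, which encodes the surrogate chain of the pre-T cell receptor, by -3.37 ± 0.25. Dntt was at 20.6, 30.8 and 37.9 in spleen and at 36.1, 99.4 and 99.6 in thymus, and in the 20 mice its lowest thymus array was at 98.9, above every spleen array. Arpp21, which is expressed in immature thymocytes, differed by -5.23 ± 0.34, and Ccr9, the receptor that draws precursors to the thymic chemokine Ccl25, by -3.99 ± 0.36. Satb1 and Bcl11b, regulators of T cell commitment, ranked high in both organs and were still higher in thymus, by -1.95 ± 0.35 and -2.40 ± 0.29. The other 4 members were not called. Cd1d1, the presenting molecule for natural killer T cells, differed by 0.63 ± 0.16, Cplx2 by 0.19 ± 0.12, Tespa1 by -0.35 ± 0.33 and Tcf12 by -0.68 ± 0.10 (other probe sets of Tcf12 down to -1.58).

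The T cell receptor complex itself is also carried by mature T cells of the spleen. Of 20 genes 13 were higher in thymus and 0 higher in spleen, with a median of -1.90 (-1.97 in 20 mice). The difference between this list and the recombination list was not tested. Cd8a, a coreceptor that most thymocytes carry, was at 41.7, 76.6 and 82.5 in spleen and at 43.6, 99.2 and 99.5 in thymus, a difference of -3.55 ± 0.33 (adjusted p = 4.2e-10). Without the arrays that stood apart the organs did not overlap, the highest spleen array at 82.5 and the lowest thymus array at 98.9. Cd4, the other coreceptor, differed by -1.78 ± 0.25. The signalling chain Cd3e differed by -1.69 ± 0.18, the kinase Zap70 by -2.44 ± 0.24 and the adaptor Lat by -2.19 ± 0.32. Trat1, an adaptor that stabilizes the receptor complex, had a difference of -3.03 ± 0.28. Ptpn22, a phosphatase that dampens receptor signals, was nearest to 0 at 0.07 ± 0.27. Cd2, an adhesion receptor of T cells, had a difference of -0.88 ± 0.42 and an adjusted p of 0.079 in 25 mice, and in 20 mice it passed the adjusted p but not the size limit.

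A list of genes of mature T cells and of egress leaned the other way, and which cells of the organ carried them was not tested. Of 19 genes of the mature T cell and egress list, 9 were higher in spleen and 1 higher in thymus (8 and 1 in 20 mice), with a median of 0.80 (0.97 in 20 mice). S1pr1, the sphingosine phosphate receptor that lets T cells leave an organ, ranked at 67.3, 95.6 and 96.9 in spleen and at 61.2, 72.1 and 88.7 in thymus, a difference of 2.54 ± 0.17 (adjusted p = 6.7e-13), higher in the spleen of 24 of 25 mice. Its regulator Klf2 differed by 1.10 ± 0.15, and Cd44, an adhesion receptor of activated and memory T cells, by 1.32 ± 0.25. The GTPase genes of the Gimap cluster were mixed, with Gimap3 (1.61 ± 0.30), Gimap5 (1.43 ± 0.21), Gimap7 (1.15 ± 0.39) and Gimap6 called and Gimap4 (0.80 ± 0.15), Gimap8 (0.54 ± 0.16) and Gimap9 (-0.29 ± 0.21) not called. Gimap6 lay close to the size limit and missed it in 20 mice, at 0.98 ± 0.07. Cd27, a costimulatory receptor, was the exception in the list at -2.50 ± 0.37. The interleukin 7 receptor gene Il7r was near the top ranks of both organs and differed by 0.34 ± 0.41, and Ccr7, which guides T cells to their zones, by 0.28 ± 0.40. Both were measured without a called difference.

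Regulatory and checkpoint genes split. Of 13 genes 6 were higher in thymus and 2 higher in spleen. Pdcd1, which encodes the inhibitory receptor PD-1, ranked at 2.84, 11.9 and 28.4 in spleen and at 27.0, 61.5 and 72.9 in thymus, higher in the thymus of all 25 mice by -3.23 ± 0.17 (adjusted p = 4.3e-15). Il2ra, a chain of the interleukin 2 receptor that early thymocytes and regulatory T cells share, differed by -2.13 ± 0.16, and Ikzf2, a transcription factor of regulatory T cells and of thymocytes under strong receptor signals, by -1.68 ± 0.14. Foxp3, the defining factor of regulatory T cells, differed by -0.72 ± 0.10, below the size limit. On the spleen side stood Btla, an inhibitory receptor that B cells also carry (2.08 ± 0.26), and Havcr2, found also on myeloid cells (1.28 ± 0.21). Tnfrsf18 lay nearest to 0, at -0.04 ± 0.29.

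Notch signalling starts the T cell program in the thymus and also directs marginal zone B cells in the spleen. Of 17 genes of the Notch and Tcf/Lef list, 5 were higher in spleen and 3 higher in thymus in 25 and in 20 mice. Among receptors, Notch1 was higher in thymus (-1.37 ± 0.13, in all 25 mice) and Notch2 higher in spleen (1.17 ± 0.12, in 24 of 25 mice). Notch1 ranked at 72.6, 78.2 and 82.7 in spleen and at 78.8, 90.7 and 97.4 in thymus, and Notch2 at 83.1, 95 and 97.6 in spleen and at 81.4, 85.7 and 91.9 in thymus. The receptors of this family thus differed in opposite directions. Among ligands, Dll1 was higher in spleen (2.07 ± 0.16) while Dll4 had a difference of -0.64 ± 0.09 and Jag2 one of -0.81 ± 0.10, neither called, although a dimmer probe set of Jag2 differed by -2.09. Among targets, Dtx1 (2.94 ± 0.35), Hes5 (1.66 ± 0.14) and Hes1 (1.55 ± 0.14) were higher in spleen and Hey1 (-1.47 ± 0.20) higher in thymus. Another probe set of Dtx1 differed by only -0.195, so that its call rests on the brighter probe set. Lef1, a partner of beta-catenin, was higher in thymus (-1.16 ± 0.21), and Ctnnb1, which encodes beta-catenin, differed by 0.10 ± 0.09.

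Thymic epithelial genes were among the clearest marks of the thymus. Of 21 genes 19 were higher in thymus and 0 higher in spleen, in 25 and in 20 mice, with a median of -3.50 (-3.62 in 20 mice). Prss16, a protease of cortical epithelium used in positive selection, ranked at 42.7, 47.1 and 50.4 in spleen and at 48.2, 99.4 and 99.6 in thymus, a difference of -6.26 ± 0.32 (adjusted p = 3.8e-15). In the 20 mice the lowest thymus array was at 99.1, well above every spleen array. Tbata, expressed in thymic stroma, differed by -6.97 ± 0.35, and the chemokine Ccl25 by -6.61 ± 0.39. Foxn1, the master regulator of thymic epithelium, differed by -3.50 ± 0.26 and Psmb11, the proteasome subunit peculiar to cortical epithelium, by -4.01 ± 0.29. Among medullary genes, Aire differed by -2.89 ± 0.20, Fezf2, a second regulator of antigen display, by -4.31 ± 0.27, and the keratins Krt5 and Krt14 by -5.01 ± 0.29 and -5.36 ± 0.29. Cldn3 (-0.65 ± 0.24) and Pax9 (-0.16 ± 0.09) were not called by their brightest probe sets. Other probe sets of Pax9 differed by -3.12 to -0.86 and those of Cldn3 by -1.15 to -0.29, so that the probe sets of Pax9 disagreed on the size of its difference. Il7, which encodes the cytokine that sustains early thymocytes, was higher in thymus by -1.17 ± 0.18.

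Of 13 measured genes that medullary epithelium is known to display from other organs, 5 were higher in thymus. Csn2, a milk casein gene, ranked at 3.71, 11.6 and 27.1 in spleen and at 2.36, 82.1 and 95.5 in thymus (-4.67 ± 0.32, adjusted p = 1.3e-12). Csn1s1, another casein gene, differed by -0.58 ± 0.20 and was not called, so that the caseins were not alike here. Sprr1a, a gene of cornified epithelium, differed by -2.73 ± 0.28, Crp, a liver acute phase gene, by -1.63 ± 0.10 and Pyy, a gut hormone gene, by -1.48 ± 0.10. The gene for insulin, Ins2 (0.59 ± 0.31), and Tg, the thyroid hormone precursor (-0.24 ± 0.11), were not called. Ins2 reached a percentile rank of 99.0 in its highest spleen array, and pancreatic genes varied among spleen arrays as given below. Of 3 parathyroid genes 2 were higher in thymus, Pth, the hormone itself, by -3.56 ± 0.27 and Chga, a secretory granule gene, by -1.08 ± 0.19, while Casr, the calcium sensor, differed by 0.11 ± 0.20.

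All 25 measured B cell genes were higher in spleen, in 25 and in 20 mice, with a median of 3.12 (3.58 in 20 mice), and in the 20 mice no thymus array reached the spleen range for any of the 25. Pax5, the regulator that fixes B cell identity, ranked at 44.5, 80.5 and 82.5 in spleen and at 21.9, 29.1 and 61.2 in thymus and was higher in the spleen of all 25 mice (3.83 ± 0.18, adjusted p = 9.1e-16). Without the arrays that stood apart its lowest spleen array was at 76.4 and its highest thymus array at 42.0. Cr2, the complement receptor of follicular and marginal zone B cells, differed by 4.89 ± 0.37. Cxcr5, which guides B cells to follicles, differed by 4.24 ± 0.37, and the survival receptor Tnfrsf13c by 4.06 ± 0.39. The receptor chains Cd79a and Cd79b differed by 4.03 ± 0.39 and 3.22 ± 0.44. At the lower end stood Ly6d, at 1.70 ± 0.30, and Tnfrsf13b, at 1.71 ± 0.39. Ly6d ranked at a median of 92.0 in thymus and 98.8 in spleen, so that it was bright in both organs.

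Of the regulators that turn B cells into plasma cells, Irf4 was higher in spleen by 1.78 ± 0.26 and Prdm1 differed by 0.89 ± 0.14 (1.21 in 20 mice, where it was called). Of 14 immunoglobulin and plasma cell genes 4 were higher in spleen and 1 higher in thymus (7 and 1 in 20 mice). Mzb1, a chaperone of marginal zone B cells and plasma cells, differed by 2.79 ± 0.35, and Pou2f2, a B cell transcription factor, by 3.17 ± 0.19. The antibody genes differed less, with Ighm at 0.78 ± 0.35 (1.12 ± 0.09 in 20 mice, where it was called, and -0.31 to 1.77 by other probe sets), Jchain at 0.63 ± 0.25 and Igha at -0.11 ± 0.20. Sdc1, the plasma cell surface proteoglycan, which epithelia also make, was higher in thymus in all 25 mice (-2.04 ± 0.17).

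Class II histocompatibility genes, which B cells, dendritic cells and thymic epithelium all use to present antigen, were higher in spleen: 8 of 13 were called in 25 mice and 10 of 13 in 20 mice, with 0 higher in thymus. The peptide-loading chains H2-DMb2 and H2-Ob differed by 2.79 ± 0.31 and 2.37 ± 0.37, and Ciita, the master regulator of the class, by 2.07 ± 0.22. The classical chains H2-Aa (0.33 ± 0.10, other probe sets 0.84 to 1.5) and H2-Ab1 (0.73 ± 0.15) and the invariant chain Cd74 (0.60 ± 0.12) were below the size limit. H2-Aa ranked at 97.5, 99.9 and 99.9 in spleen and at 97.3, 99.7 and 99.8 in thymus, so that both organs had it among their brightest probe sets. Of the 17 listed class I and proteasome genes 0 were called in either direction, with a median of 0.13. B2m, the light chain of all class I molecules, differed by 0.13 ± 0.07, and the largest differences were those of the peptide transporter subunit Tap2 (-0.93 ± 0.13), the proteasome subunit Psmb6 (-0.74) and, on the spleen side, the regulator Nlrc5 (0.72 ± 0.17). Tap2 and Nlrc5 passed the adjusted p (5e-07 and 0.00059) but not the size limit. H2-Q2, the class I gene given above at -7.30 ± 0.40, was not a member of this list. The list thus does not stand for every class I gene.

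Red pulp macrophage and iron recycling genes were higher in spleen, 14 of 22 in 25 mice and 15 of 22 in 20 mice, with 0 higher in thymus. Hmox1, the enzyme that opens heme, ranked at 83.2, 98.0 and 98.6 in spleen and at 57.1, 63.9 and 98.3 in thymus, a difference of 3.66 ± 0.20 (adjusted p = 9e-15). The highest thymus value came with an array that stood apart, and in the 20 mice the organs did not overlap. Spic, the transcription factor that red pulp macrophages require, differed by 3.20 ± 0.33, Slc40a1, the iron exporter ferroportin, by 2.78 ± 0.21, and Treml4, a receptor for dying cells, by 3.43 ± 0.34. General macrophage genes differed less or not at all, with Csf1r at 1.54 ± 0.10, Lyz2 at 0.44 ± 0.15, the complement genes C1qa, C1qb and C1qc between 0.61 and 0.65, and Cd163, a hemoglobin scavenger receptor, at -0.10 ± 0.19. Fth1, a ferritin subunit, was near the top in both organs and differed by 0.31 ± 0.14.

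At the border of white and red pulp, 6 of 8 marginal zone and lining cell genes were higher in spleen. Marco, the scavenger receptor of marginal zone macrophages, differed by 3.73 ± 0.35 and Madcam1, an adhesion molecule of the marginal sinus, by 1.39 ± 0.16. The sinus endothelial genes Stab2 (4.10 ± 0.30) and Clec4g (3.67 ± 0.27) went with them. Cd209b, a lectin of marginal zone macrophages, was below the size limit at 0.95 ± 0.17, and Cd209d differed by -0.22 ± 0.15.

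Red cell genes had some of the largest differences on the spleen side. Of 21 erythroid and heme synthesis genes 19 were higher in spleen and 0 higher in thymus in 25 and in 20 mice, with a median of 3.50 (3.96 in 20 mice). Slc4a1, the anion exchanger of the red cell membrane, ranked at 86.9, 99.2 and 99.6 in spleen and at 23.9, 38.3 and 99.3 in thymus, a difference of 6.59 ± 0.38 (adjusted p = 2.9e-14) in the same direction in all 25 mice. Its highest thymus array in the 20 mice was at 52.4 and its lowest spleen array at 98.3. Klf1 and Gata1, the transcription factors of the red cell line, differed by 5.94 ± 0.35 and 3.40 ± 0.30, and Tal1, their partner, by 4.29 ± 0.39. Heme synthesis ran from Alas2, the first enzyme, at 3.50 ± 0.31, through Cpox at 2.15 ± 0.18, to Fech, the last, at 2.43 ± 0.18, while Urod was not called at 0.81 ± 0.14. The blood group genes Rhd and Kel differed by 5.06 ± 0.39 and 5.62 ± 0.40. Tfrc, encoding the transferrin receptor, which dividing lymphocytes also use, differed by 1.61 ± 0.18. The probe set that carries Hba-a1 as its only symbol ranked at medians of 22.3 and 25.2 and was not called.

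The 250 bases before the start of these genes, from RefSeq on build GRCm38.p6, were searched on both strands for AGATAA, a form of the site that GATA factors bind. Of the 18 erythroid genes with an entry 7 held it (38.9%: Alas2, Epb42, Epor, Kel, Rhd, Tal1 and Trim10), against 9.99% of 32851 promoters of the table and 8.79% of 14452 measured genes. It was in 0 of 20 B cell genes, 2 of 13 recombination genes and 1 of 17 thymic epithelial genes. A match describes these letters in this window and is not shown to be a site. The genes below stand for an enzyme and the blood group proteins of the list, and the capitals mark the motif or its reverse complement TTATCT, 86 bases before the start in Alas2, 56 in Kel and 43 in Rhd, counted to the first base of the motif.
Alas2, the first enzyme of heme synthesis (chrX:150547167-150547416, plus strand): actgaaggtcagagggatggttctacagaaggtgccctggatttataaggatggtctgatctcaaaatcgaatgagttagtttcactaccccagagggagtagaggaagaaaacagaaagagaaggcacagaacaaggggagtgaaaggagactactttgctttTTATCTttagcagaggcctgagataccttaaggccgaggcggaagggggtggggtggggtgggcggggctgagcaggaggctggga
Kel, the Kell blood group endopeptidase (chr6:41704326-41704575, minus strand): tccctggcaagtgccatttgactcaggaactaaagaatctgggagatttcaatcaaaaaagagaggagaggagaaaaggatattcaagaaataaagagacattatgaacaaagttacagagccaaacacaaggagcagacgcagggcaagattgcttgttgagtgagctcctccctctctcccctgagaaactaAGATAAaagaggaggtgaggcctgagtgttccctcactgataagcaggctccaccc
Rhd, the Rh blood group protein (chr4:134864286-134864535, plus strand): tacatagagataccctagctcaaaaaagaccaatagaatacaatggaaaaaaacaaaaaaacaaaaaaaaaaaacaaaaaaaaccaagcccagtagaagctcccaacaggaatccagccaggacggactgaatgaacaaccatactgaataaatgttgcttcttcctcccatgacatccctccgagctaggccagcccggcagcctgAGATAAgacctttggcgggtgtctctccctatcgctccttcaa

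Platelet and megakaryocyte genes went with the red cell genes. All 15 were higher in spleen in 25 and in 20 mice, with a median of 3.51 (4.09 in 20 mice), and in the 20 mice the organs did not overlap for any of the 15. Ppbp, a chemokine stored in platelet granules, ranked at 61.7, 99.5 and 99.7 in spleen and at 34, 48.5 and 99.4 in thymus, and was higher in the spleen of all 25 mice (5.78 ± 0.39, adjusted p = 8.3e-13). The subunits of the von Willebrand factor receptor, Gp1bb, Gp5 and Gp9, differed by 5.02 ± 0.48, 4.43 ± 0.29 and 3.54 ± 0.28. Nfe2, a transcription factor needed for platelet release, differed by 4.28 ± 0.39. Selp and Vwf, which endothelium also makes, stood lowest, at 1.11 ± 0.22 and 1.39 ± 0.29.

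Of 18 neutrophil genes 16 were higher in spleen and 1 higher in thymus, with a median of 2.60 (3 in 20 mice). The primary granule genes Mpo, Elane and Prtn3, which precursors make, differed by 3.59 ± 0.44, 3.43 ± 0.36 and 3.24 ± 0.38, and Camp, of the secondary granules, by 3.65 ± 0.44. S100a8, a calcium-binding protein of mature neutrophils, ranked at 71.1, 99.3 and 99.7 in spleen and at 31.4, 86.8 and 99.9 in thymus (2.83 ± 0.38), and in the 20 mice the highest thymus array was at 92.2 and the lowest spleen array at 98.1. Padi4, which citrullinates histones, was the exception, higher in thymus by -2.13 ± 0.20, and Mmp9, a gelatinase gene, was not called at -0.79 ± 0.20.

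Natural killer and dendritic cell genes differed in fewer members. Of 15 natural killer and cytotoxic genes 3 were higher in spleen, Ncr1, an activating receptor (1.66 ± 0.22), Prf1, the pore-forming perforin (1.34 ± 0.19), and Klre1 (1.27 ± 0.09), and 0 higher in thymus. In the 20 mice Klrd1 joined them, for 4 in all. Gzma, a granzyme gene, had a difference of -0.83 ± 0.30 and was not called. Of 16 dendritic cell genes 6 were higher in spleen and 3 higher in thymus (6 and 2 in 20 mice). Clec4a2 (2.58 ± 0.21), Irf8 (1.65 ± 0.16) and Zbtb46, a factor of conventional dendritic cells (1.56 ± 0.15), were on the spleen side. On the thymus side were Ccl22 (-2.90 ± 0.22) and Ccl17 (-2.03 ± 0.12), chemokines that bind the receptor Ccr4, which was itself higher in thymus by -1.44 ± 0.11.

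The chemokines that draw lymphocytes into each organ differed by organ. Of 18 genes of that list 5 were higher in spleen and 5 higher in thymus (6 and 5 in 20 mice). Cxcl13, which follicles use to attract B cells, ranked at 47.2, 98.4 and 99.0 in spleen and at 44.9, 70.5 and 95.7 in thymus (3.19 ± 0.32), beside its receptor Cxcr5, given above. Glycam1, a ligand for the homing receptor L-selectin, was higher in the thymus of all 25 mice, at 5.41, 16.6 and 27.0 in spleen and at 25.8, 90.2 and 95.8 in thymus (-5.46 ± 0.29). Tnfsf13b, the B cell survival factor BAFF, differed by 1.49 ± 0.15, and Tnfsf11, the ligand RANKL that matures the medulla, by -0.78 ± 0.16 without a call.

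Some transcription factors that lay down each organ in the embryo differed between the adult organs. Of 14 such genes 5 were higher in spleen, 3 higher in thymus and 6 not called. Tlx1, without which no spleen forms, ranked at 43.8, 70.5 and 72.8 in spleen and at 18, 24.2 and 63.2 in thymus (3.27 ± 0.16, higher in the spleen of all 25 mice). Tcf21, another factor of spleen mesenchyme, differed by 4.92 ± 0.36, and Nr2f2, Wt1 and Nr5a1 by 2.46 ± 0.20, 2.08 ± 0.20 and 2.08 ± 0.24. On the thymus side stood Pax1 (-2.99 ± 0.18) and Tbx1 (-1.52 ± 0.22), factors of the pharyngeal pouches, beside Foxn1. Nkx2-5, which acts early in the spleen, was not called at 0.70 ± 0.14, and Barx1 lay nearest to 0 at 0.03 ± 0.14.

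Vessel and matrix genes were split. Of 16 endothelial genes 7 were higher in spleen and 2 higher in thymus (6 and 2 in 20 mice), among them Plvap, a gene of fenestrated vessels (1.85 ± 0.14), and, on the thymus side, Lyve1 (-1.88 ± 0.24), a receptor of lymphatic vessels. Of 21 matrix genes 4 were higher in spleen and 6 higher in thymus (6 and 6 in 20 mice). Tnc, a glycoprotein of mesenchyme, had a difference of -5.10 ± 0.23, Lum, a collagen-binding proteoglycan, one of -4.20 ± 0.33, and Thbs1, which platelets also carry, one of 4.03 ± 0.28. The fibrillar collagens Col1a1 (0.28 ± 0.25) and Col3a1 (-0.49 ± 0.15) were not called. Of 10 smooth muscle genes Mylk alone was higher in spleen (1.61 ± 0.18), joined in 20 mice by Actg2. Of 17 cytokine receptor genes 4 were higher in spleen, led by Kit, the stem cell factor receptor (1.90 ± 0.14), and 1, Il2ra, higher in thymus.

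**Figure D3:**
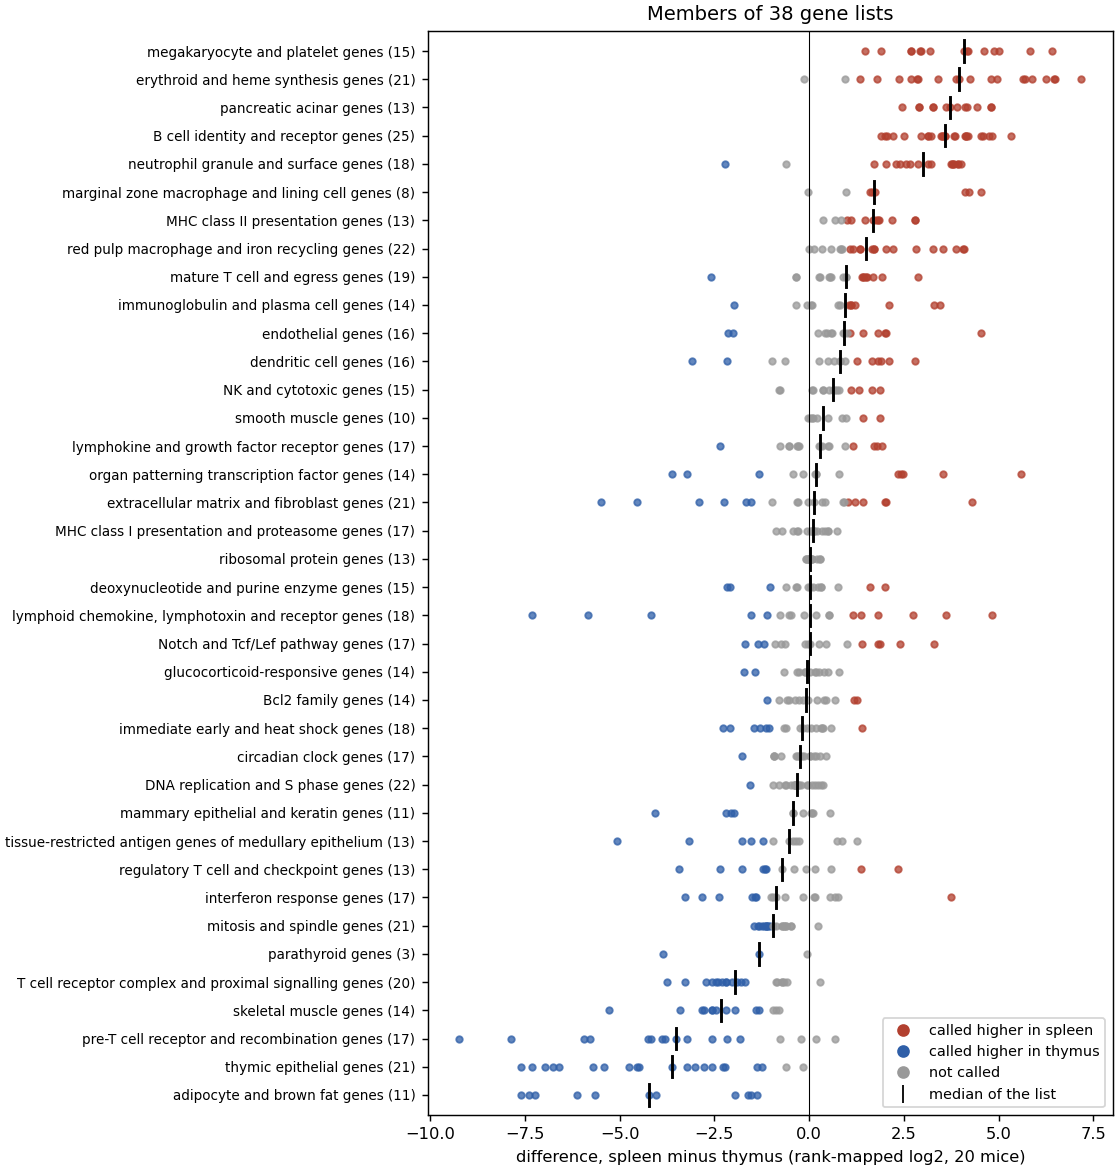
Log2 difference, spleen minus thymus (x axis), of every measured member of 38 gene lists (y axis) over the 20 mice, 1 point per gene, colored by whether the gene was called higher in spleen, higher in thymus or not called, with a bar at each list's median. The B cell, megakaryocyte and erythroid lists lie to the spleen side (medians of 3.58, 4.09 and 3.96), the epithelial and recombination lists to the thymus side (-3.62 and -3.51), and the ribosomal list at 0.034.

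Genes of DNA replication and of mitosis differed unequally. Of 22 replication genes 1, Uhrf1, which maintains DNA methylation, was higher in thymus (-1.72 ± 0.30) and 0 higher in spleen. Of 21 mitosis genes 10 were higher in thymus and 0 higher in spleen, with a median of -0.99 (-0.96 in 20 mice) against -0.38 (-0.31) for replication. The difference between the lists was not tested. Top2a, which untangles chromosomes, ranked at 36.9, 91.8 and 97.7 in spleen and at 78.8, 97.5 and 98.7 in thymus (-1.60 ± 0.30), and the organs overlapped also in the 20 mice. Mki67, the proliferation marker, was at medians of 98.7 and 98.3 and differed by 0.03 ± 0.29. Mcm2, a subunit of the replicative helicase, differed by -0.38 ± 0.21. Spleens varied more among themselves than thymuses: in the 20 mice the mean percentile rank of the mitosis list ran from 70.29 to 91.93 in spleen and from 85.93 to 92.02 in thymus. That spread of spleens was not tested.

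In nucleotide metabolism, Ada, the deaminase whose loss removes T and B cells, was higher in thymus by -2.20 ± 0.21, with Ampd1 (-2.06 ± 0.17) and Dut (-1.03 ± 0.17), and Ampd3 (1.93 ± 0.18) and Samhd1, which degrades nucleotides (1.38 ± 0.19), were higher in spleen, 5 called of 15. Of 14 genes of the Bcl2 family, the killers Bid (1.47 ± 0.16) and Pmaip1 (1.29 ± 0.14) were higher in spleen and Bbc3 (-1.05 ± 0.12) higher in thymus. Bcl2l11, which encodes Bim, a killer of self-reactive thymocytes, was not called at -0.20 ± 0.17. Of 13 ribosomal protein genes 0 were called, and their differences ran from -0.14 (Rps9) to 0.21 (Rps19).

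Genes that answer signals differed in a few members each. Of all genes 6.49% were called higher in spleen and 8.36% higher in thymus, so the few calls of the glucocorticoid and clock lists do not set those lists apart. Of 17 interferon-induced genes 6 were higher in thymus and 1 higher in spleen. Ifit1, an RNA-binding antiviral gene, was at 36.8, 41.3 and 54.0 in spleen and at 45.5, 78.8 and 89.9 in thymus, higher in the thymus of all 25 mice (-3.02 ± 0.17). Oasl2 and Usp18 differed by -2.60 ± 0.13 and -2.22 ± 0.15. Rsad2, the antiviral enzyme viperin, went the other way, at 90.1, 97.6 and 99.3 in spleen and at 60.7, 68.6 and 99.1 in thymus (3.35 ± 0.25), so that interferon-induced genes differed in both directions. Of 18 immediate early and heat shock genes 5 were higher in thymus and 0 higher in spleen (6 and 1 in 20 mice). Egr2 and Egr1, which strong receptor signals switch on in thymocytes, differed by -2.29 ± 0.21 and -2.05 ± 0.14, while Egr3 had a difference of 0.98 ± 0.31 (1.40 in 20 mice, where it was called). Of 14 glucocorticoid-responsive genes Fkbp5 (-1.54 ± 0.12) and Cdkn1a (-1.43 ± 0.12) were higher in thymus, and the receptor Nr3c1 differed by 0.08 ± 0.09. Of 17 clock genes Cry1 alone was called, higher in thymus by -1.75 ± 0.13.

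Genes that mark other tissues were also high in some arrays. All 13 pancreatic enzyme genes were higher in spleen, with a median of 2.84 (3.72 in 20 mice), but not evenly. Their mean percentile rank ran from 34.88 to 99.96 in the spleens of the 20 mice and from 32.14 to 40.63 in the thymuses, and it was over 90 in 8 spleen arrays. Cpb1, a carboxypeptidase, ranked at 17.4, 49.6 and 99.96 in spleen and at 2.97, 12.9 and 99.0 in thymus (3.82 ± 0.78). Only Cela1, an elastase gene, separated the organs in the 20 mice, from 74.3 up in spleen and to 66.8 in thymus. In thymus, all 11 fat genes were higher, led by the brown fat genes Ucp1 (-6.89 ± 0.38) and Cidea (-6.79 ± 0.34), and their mean percentile rank was 76.08 to 92.96 in the 20 mice against 38.09 to 54.51 in spleen. Of 11 heart genes 9 were higher in thymus, with mean ranks from 37.85 to 95.92 against 27.94 to 33.45 in spleen. Myh6, the heart myosin, ran from 14.6 through 92.4 to 99.9 in thymus and stayed at or below 3.44 in spleen. Airway genes (8 of 10) and skeletal muscle genes (11 of 14) were likewise higher in thymus, with mean ranks of 43.21 to 73.79 against 29.02 to 32.43 and of 41.67 to 96.18 against 30.29 to 32.63. The part of such tissue in the other differences was not tested. Myh6, Actc1 and Cidea, among the leading thymus genes, are members of these lists.

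**Figure D4:**
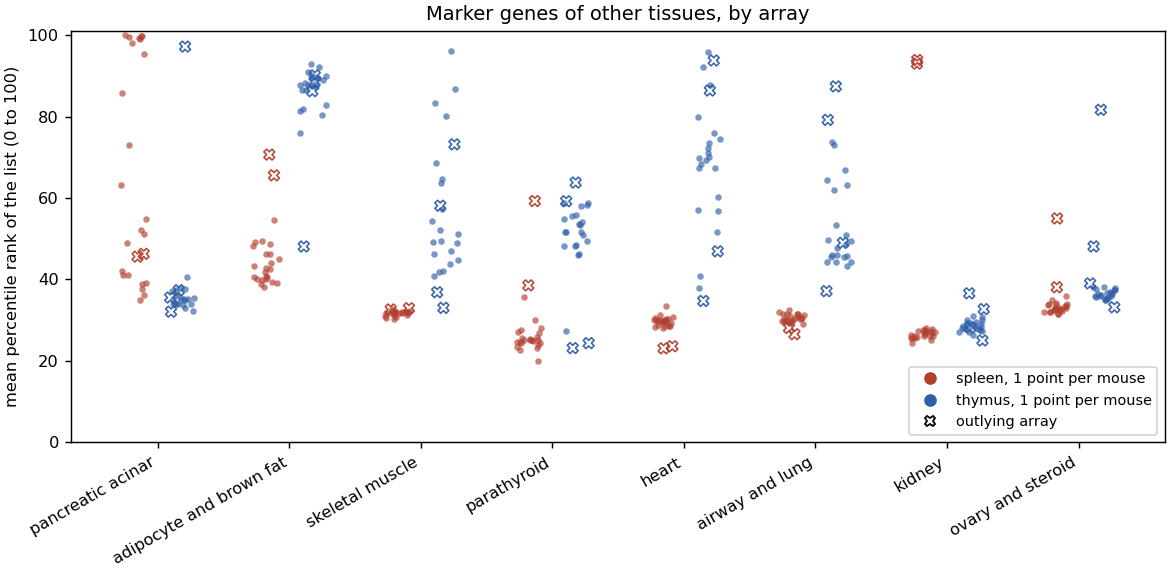
Mean percentile rank within the array (y axis, 0 to 100) of 8 lists of genes from other tissues, 1 point per array, by organ, with the arrays that stand apart marked. Pancreatic genes spread from 34.88 to 99.96 over the spleens of the 20 mice, heart genes from 37.85 to 95.92 over their thymuses, and kidney genes are high in only 2 spleen arrays, both of them marked.

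Of 11 mammary epithelial genes 4 were higher in thymus, the epithelial genes Krt7 (-3.66 ± 0.30), Krt19 (-2.38 ± 0.30), Cldn7 (-1.77 ± 0.24) and Spint1 (-1.59 ± 0.26). Erbb2, the mouse gene whose activated rat form the transgene carries, ranked at 45.8, 50.1 and 79.5 in spleen and at 31.0, 47.9 and 69.3 in thymus and was not called (0.19 ± 0.17, adjusted p = 0.38).

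Through the link by sample ID, it was asked whether a gene high in a spleen was also high in the linked thymus. That linked organs come from the same mouse rests on the labels. Over 586 genes of the lists, Pearson's r was called for 3 in 25 mice and for 7 in 20 mice (two-sided permutation test with 100000 resamples, Benjamini-Hochberg adjusted over the 586), while the median r was 0.031 and 0.088. Mice were split by the run of their sample IDs into 10 earlier and 15 later mice, and r was computed in each.

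Hsph1, a large heat shock protein, had the highest r, 0.822 with a rho of 0.889 in 25 mice (permutation p = 1e-05, the smallest that the resamples can give, adjusted p = 0.00586). It was 0.803 in the earlier and 0.939 in the later mice, 0.825 without the 2 mice farthest from the spleen median, and 0.951 in the 20 mice. In those 20 mice its log2 level ran from 10.39 to 12.06 in spleen and from 9.883 to 11.86 in thymus. A mouse with much Hsph1 in the spleen thus had much in the thymus. Dnajb1 and Hspa1b, other heat shock genes, were called by Pearson's r in 20 mice and not in 25 (r = 0.824 and 0.759, permutation test, adjusted p = 0.00195 and 0.0129).

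Tsc22d3 and Ddit4, which glucocorticoids induce, followed. Tsc22d3 had an r of 0.679 in 25 mice (permutation test, adjusted p = 0.0488), with 0.83 in the earlier and 0.231 in the later mice, and a rho of 0.55 that was not called (permutation test, adjusted p = 0.227). In the 20 mice it had an r of 0.868 (permutation test, adjusted p = 0.00293), with 0.959 and 0.766 in the earlier and later mice. Ddit4 had an r of 0.634 (permutation test, adjusted p = 0.112) and 0.878 (permutation test, adjusted p = 0.00195). Padi4 was the only gene called with a negative r, -0.704 in 25 mice (permutation test, adjusted p = 0.0176), and it was not called in 20 mice (r = -0.594, permutation test, adjusted p = 0.18). The values of H2-D1 (0.681), H2-K1 (0.666), Cd209b (0.664) and Fth1 (-0.628) were not called, and they rested on the 2 mice farthest from the median, without which they were 0.0896, 0.261, 0.273 and -0.202. The other genes called in 20 mice were Errfi1, a feedback inhibitor of the epidermal growth factor receptor (r = 0.732), and Eya1, a factor of the thymic rudiment (r = 0.723). Of 17 clock genes 0 were called in either set of mice.

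Over all 18193 genes in place of the lists, a family chosen after the data were seen, 0 genes were called in 25 mice by the permutation test, with 992 at an unadjusted p under 0.05, where 5% of the genes are 910. A single gene at the smallest p the resamples can give would have an adjusted p of 0.182 in this family, so that the count of 0 does not show that no gene was correlated. In the 20 mice 17 were called (0.0934%), 15 with a positive and 2 with a negative r. Among them was Cirbp, a cold-induced RNA-binding protein, with an r of 0.864. Within an organ Cirbp ran against Hsph1, with an r of -0.863 over the spleens and -0.867 over the thymuses of the 20 mice (permutation test, adjusted p = 6.4e-05 and 4e-05 over 16 such values, in pairs chosen after the data were seen). Tsc22d3 ran with Ddit4, at 0.937 in spleen and 0.795 in thymus, whereas Hsph1 and Tsc22d3 had an r of -0.00077 and 0.0849 and were not called. In all 25 mice the thymus value of Tsc22d3 and Ddit4 was 0.473, and -0.0679 in the later mice. That of Hsph1 and Cirbp was -0.665 in 25 mice, and -0.472 in the earlier mice. The remaining pair, Hsph1 and Dnajb1, had an r of 0.717 over the spleens of the 20 mice (permutation test, adjusted p = 0.00128). Over their thymuses it was 0.405 and not called (permutation test, adjusted p = 0.103). In 25 mice this pair had 0.481 in spleen and 0.395 in thymus, the latter not called.

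**Figure D5:**
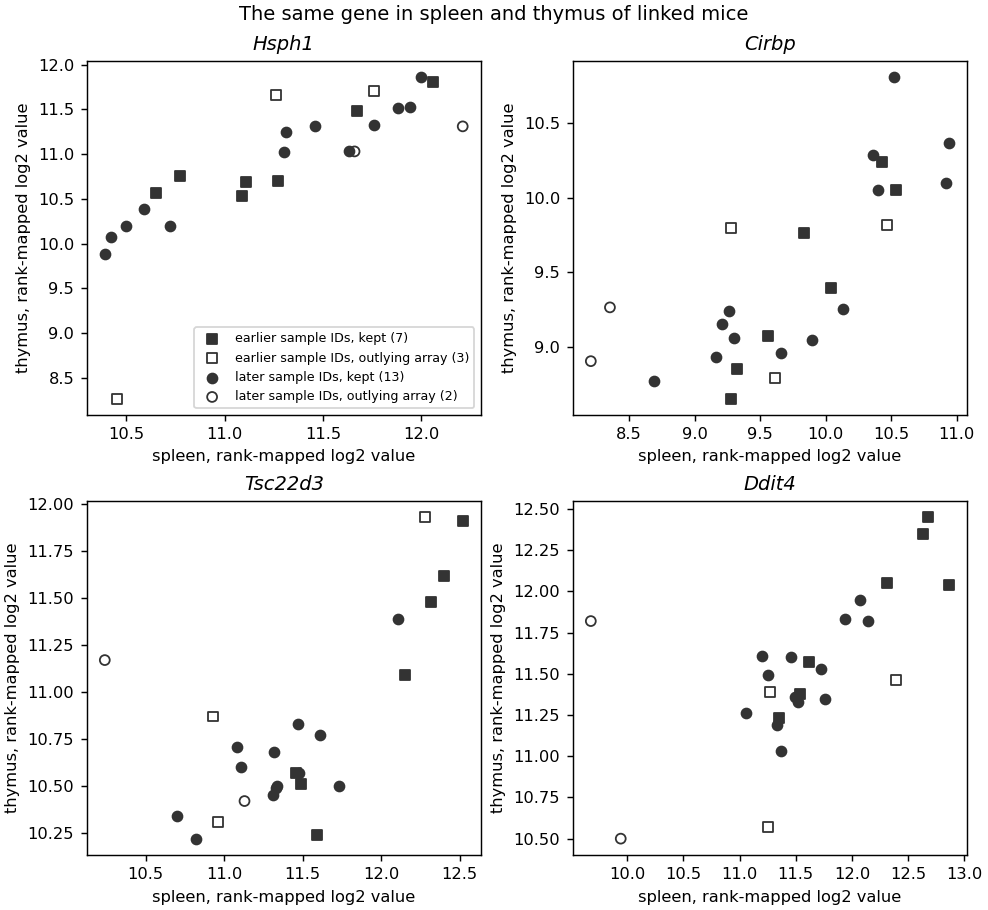
Log2 level in the spleen (x axis) against log2 level in the linked thymus (y axis), for Hsph1, Cirbp, Tsc22d3 and Ddit4. There is 1 point per linked mouse, and mice that have an array standing apart are marked. In the 20 mice Hsph1 spans 10.39 to 12.06 in spleen and 9.883 to 11.86 in thymus and the levels of both organs go together (r = 0.951).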

How the data were processed

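RNA from spleen and thymus of 25 control mice was measured on 50 arrays. The deposited values were probe set intensity on a linear scale, which the authors had summarised and normalized; the method is not given in the sources used here. Of 45101 probe sets 64 controls were left out. The other 45037 were ranked within each array, and each rank was replaced by the mean log2 intensity of that rank over the 50 arrays. Genes were named through the platform annotation: 34945 probe sets had 1 symbol, 932 several and 9160 none, and 34741 were matched by Entrez ID to GRCm38.p6. A gene was the probe set with the highest mean, which left 18193 genes. Of 308 genes of the lists or named that had several probe sets, 0 had a used and another probe set that differed by at least 1 in opposite directions. For H2-D1, at 0.14, another probe set differed by -1.72, and of 167 such genes not called, 22 had another probe set past 1, so that a gene not called here may differ by another probe set. A call can likewise rest on the probe set used. Another probe set differed by -0.393 for Ccl25, -0.292 for Il2ra, -0.15 for Prf1 and -0.337 for Nr5a1, all of them called. The same held for the called genes Clec4a2 (0.262), Krt17 (-0.424), Pax1 (-0.468) and Foxn1 (-0.732). Other probe sets of Zap70 (-2.2 and 0.235), Krt14 (-4.97 and -0.337) and Cd44 (-0.209 to 2.08) disagreed with each other. These are examples and not all such genes.

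Differences were fitted with limma 3.58.1 in R 4.3.3 (lmFit, eBayes with a trend), with the mouse as a block, and adjusted by Benjamini-Hochberg over all genes. Correlations used Python 3.11.15 and scipy 1.17.1. On simulated data of the same size, 97% of 100 genes changed by 1.5 on the log2 scale were recovered. Of 100 genes changed by 2, 100% were recovered, with 2 false calls among 18193 genes. The changed genes were drawn from those above the median level, and the noise was independent between genes. Dim changed genes and arrays in which many genes shift together were not simulated, so that recovery there is not known. The number of arrays limits the precision.

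The organs of a mouse were paired by the sample IDs in the labels. A spleen was paired with the thymus whose ID had the same first 6 digits and the nearest running number. For 24 mice these numbers lay within 4 of each other. For 1 mouse the gap was wider, so that its link rests on the shared 6 digits. The rule itself picks the nearest number, so that closeness is no separate check of it. Deviations of paired arrays from their group means correlated with a median r of 0.0431, over 0.1 in 8 of 25 mice. Spleen and thymus arrays not paired had a median r of 0.00217. In the 20 mice the medians were 0.0162 for paired arrays and -0.00734 for the others. A spleen correlated best with its own linked thymus in 2 of 25 mice, and in 5 of the 20 mice. The members and lists were chosen with earlier results of these data known, and the kidney, ovary, heart and airway lists after outlying arrays had been seen. Of those, kidney (14 genes) had 1 called higher in each organ, but 0 higher in spleen in the 20 mice, where its median was -0.07 in place of 0.51, and ovary (12 genes) 1 higher in spleen and 3 higher in thymus. Named were Erbb2, the 15 genes with the largest difference in each direction among those called and alike in direction in all 25 mice, the 3 leading called members of each list in each direction and the member nearest to 0, the 10 list genes with the largest correlation across mice, and other members where a list is described. Alternatives covered the scale, the block, the outlying mice, dim genes, probe set types, sample ID runs, the plate, the size limit and the family of genes.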

Additional observations from a re-analysis of the deposited data

How the results depend on the processing

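The counts of 1181 genes higher in spleen and 1521 higher in thymus were the same without the mouse as a block. With every array paired, the block leaves each difference as it is, so that equal counts are no check of the pairing. With the adjusted p alone and no size limit they were 4816 and 5637. On deposited log2 values over the 20 mice, a setting added after the data were seen, 2336 genes were higher in thymus. The count of genes correlated across linked mice, 3 in all, was 7 in the 20 mice, 0 in the earlier and 2 in the later sample IDs alone, 2 by Spearman's rho (4 in the 20 mice) and 4 without the 2 mice farthest from the spleen median. With all genes as the family, also added later, it was 0 in 25 mice and 17 in 20. Of 191 named genes 159 kept their direction and their side of the threshold under all settings run. Of the list medians under the alternatives, 597 were within the limit set for a change and 11 moved. That limit was the standard deviation of a list's median difference over all 25 mice. Mice with an array that stood apart widen it, so that staying within it is a weak check. Which organ a small difference favours depends on the scale, since the deposited values had different medians in spleen and thymus. Probe sets at the low end of the ranks bound a difference less well than bright ones.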
